A study of Mus musculus with 6 samples.

Results

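The genes described here encode actin and the proteins that bind it. They were chosen by symbol, and each of the 10 genes has 1 row among the 46078 genes of the count table. *Actb* and *Actg1* encode the cytoplasmic β- and γ-actin, *Tmsb4x* and *Tmsb10* the thymosins β4 and β10, *Pfn1* and *Pfn2* the profilins 1 and 2, *Cfl1* cofilin-1, *Gsn* gelsolin, *Arpc2* a subunit of the Arp2/3 complex, and *Capza2* an α subunit of the capping protein CapZ. All are annotated as protein-coding in GRCm38.

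The study asked what inhibition of histone deacetylases (HDACs) changes in cones of a mouse model of retinitis pigmentosa. TSA-treated samples were TN-XL-positive cones sorted from *rd1* TN-XL retinal explants that were placed in culture at PN19 and kept for 7 days with 10 nM trichostatin A (TSA), an HDAC inhibitor. DMSO controls were the same cones from explants that received the same amount of the solvent, DMSO. There were 3 libraries per group, each labelled as a separate biological replicate, and per the study's methods each pooled explants of different animals. All animals carried the *rd1* mutation of *Pde6b*, which kills the rods first, and the TN-XL calcium sensor under a human red opsin promoter, and all explants kept their pigment epithelium. No group without the *rd1* mutation was sequenced among these samples, so the values describe degenerating cones only. One label gives a harvest at PN26 for all 6 samples. Another gives PN29, 30 and 31 for TSA replicates 1 to 3, against PN26, 27 and 28 for DMSO replicates 1 to 3. Read literally, the second label leaves harvest age and treatment impossible to tell apart.

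Actin monomers join into filaments that grow mainly at one end, the barbed end. Thymosins hold monomers in reserve, whereas profilins load monomers for growth at the barbed end. Cofilin and gelsolin cut filaments, the Arp2/3 complex starts branches on existing ones, and capping protein stops growth at the barbed end. In photoreceptors, filaments lie at the connecting cilium, where new outer segment discs form, at the junctions of the outer limiting membrane and in the synaptic terminal.

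RNA-seq libraries were made from 2000 to 5000 sorted cells each, with 17 cycles of cDNA amplification. They held 12088800 to 12734097 counts in the TSA group and 9135389 to 13650676 in the DMSO group. All 13 listed cone markers had counts in every library, 12 or 13 of them at least 10 counts, and their sum took 2.98 to 5.00% of counts in TSA libraries and 3.20 to 5.32% in DMSO libraries, with *Gngt2* and *Pde6h* the most abundant. Rod markers were also present (1.16 to 1.74% of counts in TSA libraries and 1.69 to 2.38% in DMSO libraries). One library stood apart in markers of other cells. In TSA replicate 1, 17 of 18 microglia markers and 17 of 18 Müller glia markers had at least 10 counts, against 1 to 5 and 7 to 11 in the other 5 libraries. Microglia markers took 0.344% of its counts and 0.00990 to 0.0177% in the other TSA libraries, against 0.0112 to 0.0617% in DMSO libraries. Müller glia markers took 1.71% of its counts and 0.132 to 0.220% in the other TSA libraries, against 0.190 to 0.324% in DMSO libraries. Bipolar cell markers were present in every library. They took 0.396% of counts in TSA replicate 1 and 0.143 to 0.177% in the other TSA libraries, against 0.114 to 0.253% in DMSO libraries. Of the 13 listed, 13 had at least 10 counts in TSA replicate 1 and 7 to 12 in the other 5 libraries. Fold changes of the actin genes named above are therefore also given without TSA replicate 1. In bulk libraries like these, fewer cells of a type and less RNA per cell cannot be told apart.

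The genes include 3 pairs of paralogs, and their coding sequences, from GENCODE transcripts of GRCm38, are shown because the reads had to be assigned between them. Bases that differ from the partner are in capitals. The thymosins differed at 40 of 135 coding bases, and their longest identical run was 10 bases:
Tmsb4x: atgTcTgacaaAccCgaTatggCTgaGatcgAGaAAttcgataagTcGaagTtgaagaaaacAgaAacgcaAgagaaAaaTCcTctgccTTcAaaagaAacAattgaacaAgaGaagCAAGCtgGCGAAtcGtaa
Tmsb10: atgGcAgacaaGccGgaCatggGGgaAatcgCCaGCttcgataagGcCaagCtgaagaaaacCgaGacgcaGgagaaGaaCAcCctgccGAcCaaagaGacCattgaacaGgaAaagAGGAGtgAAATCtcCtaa

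The actins were the closest pair, with 88.7% of 1128 coding bases identical and a longest identical run of 62 bases. Their first 90 coding bases, which differ at 16 positions, are:
Actb: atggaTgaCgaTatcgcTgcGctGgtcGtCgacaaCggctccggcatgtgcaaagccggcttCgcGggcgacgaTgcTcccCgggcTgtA
Actg1: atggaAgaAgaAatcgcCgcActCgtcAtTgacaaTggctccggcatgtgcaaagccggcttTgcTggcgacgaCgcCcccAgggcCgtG

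The profilins shared 61.5% of 423 coding bases, with a longest identical run of 12 bases. Their first 90 coding bases differ at 31 positions:
Pfn1: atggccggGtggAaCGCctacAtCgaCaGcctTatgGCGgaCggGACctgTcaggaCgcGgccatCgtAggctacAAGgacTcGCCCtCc
Pfn2: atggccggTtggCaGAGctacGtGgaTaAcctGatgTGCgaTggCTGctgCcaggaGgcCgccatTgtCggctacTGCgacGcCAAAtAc

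The reads were 75 bases long before trimming. Within these coding sequences, no read of that full length without a mismatch could match both genes of a pair. A read trimmed to 62 bases or fewer could match both actins. Read lengths after trimming were not looked at. Sharing with other annotated transcripts was a different matter. Of the 75-base windows of the main *Actg1* transcript, 54.5% occurred unchanged in a transcript of at least 1 of 10 other genes, mostly predicted genes and pseudogenes. The share was 32.8% for *Tmsb10*, 16.5% for *Cfl1* and 2.60% for *Actb*, and no window of the other 6 genes was shared. *Cfl1* also overlaps *Snx32* on the opposite strand by 468 exon bases. How multi-mapping reads and strand were handled is not given in the sources used here, so the counts of *Actg1*, *Tmsb10* and *Cfl1* are uncertain to that extent.

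Levels are given as CPM, counts scaled to the same TMM-adjusted library total. The whole group of 10 genes took 0.464, 0.402 and 0.399% of all counts in TSA replicates 1 to 3, and 0.340, 0.358 and 0.456% in DMSO replicates 1 to 3. The means were 0.421 ± 0.0366% in TSA cones and 0.385 ± 0.0621% in DMSO cones (SD, n = 3 each), and the groups overlapped. The difference of 0.0368 percentage points was 0.000531 as a share of the TMM-adjusted totals, 0.0157 without TSA replicate 1, 0.0146 without DMSO replicate 1 and 0.0723 without DMSO replicate 3. *Tmsb4x* alone made up 48.6 to 74.5% of these counts in TSA libraries and 64.4 to 79.3% in DMSO libraries. Without it, the other 9 genes took 0.238, 0.169 and 0.102% of counts in TSA libraries, against 0.0841, 0.128 and 0.0943% in DMSO libraries. TSA replicate 3 lay among the DMSO libraries in this measure.

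**Figure D1:**
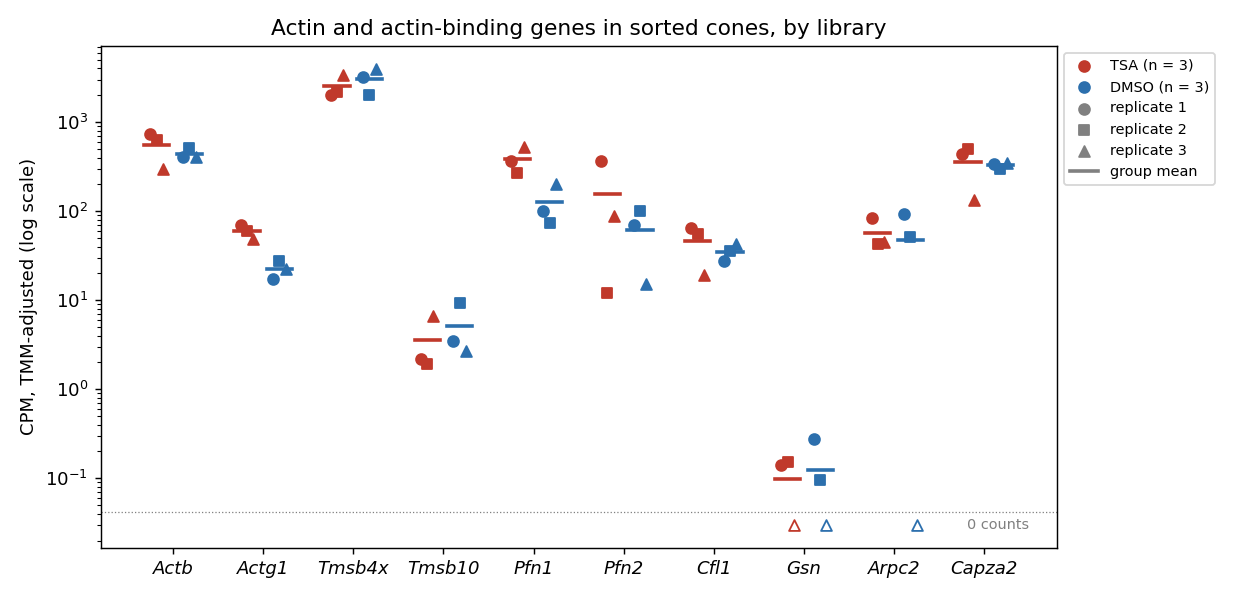
CPM of the 10 genes in each library, on a log scale, with TSA libraries (red) left of DMSO libraries (blue), 1 symbol per replicate number and lines at the group means. Open symbols below the dotted line are libraries with 0 counts. *Actg1* and *Pfn1* are the genes whose 3 TSA libraries all lie above the 3 DMSO libraries.

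Per kilobase of the main transcript, *Tmsb4x* was the most abundant of the 10 genes in every library, at 3287 ± 996 CPM per kb in TSA cones and 3997 ± 1297 CPM per kb in DMSO cones (SD, n = 3 each). *Pfn1* (450 ± 153 in TSA cones and 146 ± 79.2 in DMSO cones) and *Actb* (286 ± 118 in TSA cones and 231 ± 33.1 in DMSO cones) followed. These next levels were not separable, as *Pfn1* exceeded *Actb* in 3 of 6 libraries. *Capza2* came next by its mean, below *Actb* and above *Pfn2* in 6 of 6 libraries, but it was above *Pfn1* in DMSO replicates 1 and 2. The order of *Pfn2*, *Arpc2*, *Actg1* and *Cfl1* did not hold across libraries, since each stood above the next in only 3 or 4 of 6. *Tmsb10*, at 5.15 ± 3.78 CPM per kb in TSA cones and 7.45 ± 5.16 in DMSO cones, was below *Cfl1* in 5 of 6 libraries, and *Gsn* was below *Tmsb10* in 6 of 6.

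For the comparison of TSA with DMSO, a gene was tested if 2 or more libraries of the same group exceeded 1 CPM. The test was edgeR's quasi-likelihood test, two-sided, with Benjamini-Hochberg adjustment over 9621 genes. Of the 10 genes, 9 entered the test, and all 9 would have passed the filter through either group. *Gsn* was too low. An unadjusted p of 0.05 was reached by 1 of the 9 as higher in TSA cones, where 8.02% of all genes tested did so, and by 0 as lower, where 2.3% of all genes did. At an adjusted p under 0.05 edgeR called 0 of the 9 and 0 of all genes (0%). DESeq2 called 856 and limma-voom 37 of all genes at this threshold, with 0 of the 9 genes in either. The 3 TSA libraries lay above the 3 DMSO libraries for 2 of the 9, where this held for 6.37% of all genes, and below them for 0, where it held for 3.71%. The log2 fold change was above 0 for 7 and below 0 for 2 of the 9. Its median was 0.31, against 0.025 over all genes tested, of which 50.9% were above 0. The order was reversed in 2 other fits, where the median of the 9 was 0.24 against 0.36 over all genes with limma-trend and 0.26 against 0.32 with the replicate number as a block. Without TSA replicate 1 it was kept, at 0.054 against -0.068. Of the 993 genes of the whole table at this unadjusted threshold, 43 passed the filter through both groups, as the 9 genes did, out of 6073 such genes tested. The shares of 8.02 and 2.3% thus come mostly from genes that passed the filter through 1 group alone.

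*Pfn1* (chr11:70651850-70654644, minus strand, GRCm38), the broadly expressed profilin, was the gene past the unadjusted threshold. It had 368, 266 and 527 CPM in TSA replicates 1 to 3 and 101, 73.6 and 203 CPM in DMSO replicates 1 to 3. Each TSA library was above each DMSO library, and the lowest TSA value, 266 CPM, stood next to the highest DMSO value, 203 CPM. The log2 fold change was 1.62 ± 0.64 (standard error), with an unadjusted p = 0.037 and an adjusted p = 0.429 in edgeR. Without TSA replicate 1, the library with the most glial and bipolar cell marker counts, the log2 fold change was 1.72 ± 0.76. The call was not kept in edgeR without TSA replicate 1 (unadjusted p = 0.061), TSA replicate 3 (unadjusted p = 0.104), DMSO replicate 1 (unadjusted p = 0.076) or DMSO replicate 2 (unadjusted p = 0.075). No 75-base window of *Pfn1* was shared with another gene.

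*Pfn2* (chr3:57841895-57848079, minus strand), the profilin enriched in nervous tissue, varied more between TSA libraries than any other of the 9 genes. It had 369, 12.2 and 89.2 CPM in TSA replicates 1 to 3, against 69.6, 99.8 and 15.1 CPM in DMSO replicates 1 to 3. The groups overlapped widely, with the highest and the lowest of the 6 values both in TSA libraries. Its coefficient of variation (SD over the mean) was 120% in TSA cones and 69.9% in DMSO cones. The log2 fold change was 1.35 ± 1.31 (edgeR, unadjusted p = 0.336, adjusted p = 0.9997), and without TSA replicate 1 it was -0.28. TSA replicate 1 is also the library with the most microglia, Müller glia, bipolar, amacrine and horizontal cell marker counts. Their part in the *Pfn2* value was not tested.

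The actins differed in how they compared between the groups. *Actb* (chr5:142903115-142906754, minus strand) had 731, 622 and 296 CPM in TSA replicates 1 to 3, against 409, 517 and 406 CPM in DMSO replicates 1 to 3. TSA replicates 1 and 2 lay above all DMSO libraries and TSA replicate 3 below them all. The difference, a log2 fold change of 0.31 ± 0.49, was smaller than its standard error (edgeR, unadjusted p = 0.544). It was 0.12 without TSA replicate 1 and 0.56 without TSA replicate 3.

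*Actg1* (chr11:120345690-120348542, minus strand) had 70.8, 59.8 and 48.4 CPM in TSA replicates 1 to 3, against 17.1, 27.5 and 22.1 CPM in DMSO replicates 1 to 3. All TSA libraries were above all DMSO libraries, and the coefficient of variation was 18.8% in TSA cones, the lowest of the 9 genes, and 23.4% in DMSO cones. The mean ratio of 2.68 went with a log2 fold change of 1.42 ± 1.17 that did not pass the test (edgeR, unadjusted p = 0.259, adjusted p = 0.9997). Over the other fits of all 6 libraries the unadjusted p ran between 0.056 (DESeq2) and 0.477 (edgeR with no filter). With 1 library left out, the fold change stayed between 1.20 and 1.57, with 1.34 without TSA replicate 1. The 6 predicted genes and pseudogenes in the count table that share windows with *Actg1* summed to 171, 134 and 62 counts in TSA libraries, against 20, 27 and 44 counts in DMSO libraries. The sums thus also lay apart, and *Actg1* itself had 1004, 780 and 538 counts in TSA libraries, against 185, 289 and 247 in DMSO libraries.

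Within a library, a ratio of paralogs does not depend on the scaling. *Actb* over *Actg1*, as counts per kb, was 10.5, 10.6 and 6.22 in TSA replicates 1 to 3, against 24.3, 19.1 and 18.6 in DMSO replicates 1 to 3. The ranges did not overlap. The level of this ratio depends on how many reads of the windows shared with other genes were counted for *Actg1*, which was not tested. If none of them had been counted, so that only unshared windows gave reads, the same counts would put the ratio at 2.91 to 4.95 in TSA libraries and 8.72 to 11.4 in DMSO libraries. By construction this rescales all 6 values by 1 factor, so it cannot show an effect on the difference between the groups. Whether reads of the shared windows bear on that difference was not tested. *Pfn1* over *Pfn2* was 2.71 to 59.5 in TSA libraries and 2.01 to 36.7 in DMSO libraries, and *Tmsb4x* over *Tmsb10* was 466 to 1012 in TSA libraries and 195 to 1328 in DMSO libraries, so both overlapped. Of 3 ratios, 1 had separate ranges, no test was run on any of them, and no share over other gene pairs was computed. As *Actg1* itself lay apart between the groups, its ratio is not an independent result.

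**Figure D2:**
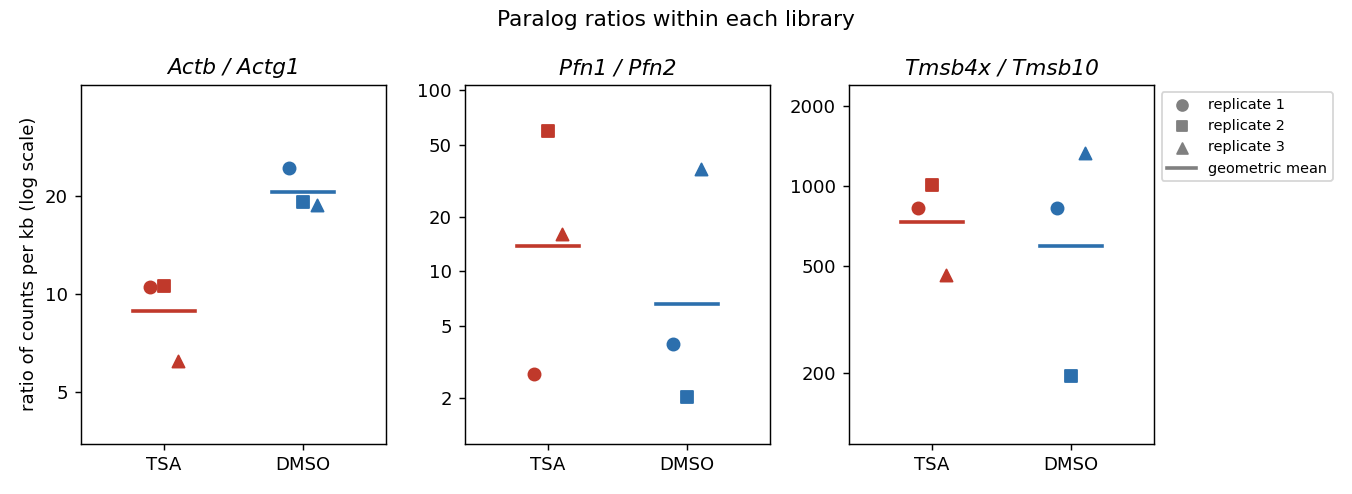
Ratio of counts per kb (log scale) of each paralog pair within each library, TSA (red) left of DMSO (blue), with lines at the geometric means. The *Actb* over *Actg1* ratio is 6.22 to 10.6 in TSA libraries and 18.6 to 24.3 in DMSO libraries, while the ranges of the other pairs overlap.

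The CArG box is the binding motif of serum response factor (SRF), which controls many actin cytoskeleton genes. Of the 9 genes with a promoter sequence to search, *Actg1* had such a box. The search says nothing of *Actb*, which had no sequence to search. RefSeq promoter sequences (GRCm38.p6) were matched for 9 of the 10 genes, all but *Actb*, and the 250 bases before each start site were searched on both strands. The *Actg1* match begins 90 bases before the RefSeq start site, which lies inside the GENCODE gene given above. It is shown on the minus strand in its surrounding bases, chr11:120348566-120348595, with the motif in capitals:
Actg1 upstream: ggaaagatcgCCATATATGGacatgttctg

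A CArG box was found in 1.47% of all 32851 promoters searched and in none of the other 8 genes matched. The match is a description of these letters and no evidence of binding in cones.

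The thymosins showed no separation of the groups. *Tmsb4x* (chrX:167207093-167209315, minus strand) had 2011, 2159 and 3404 CPM in TSA replicates 1 to 3, against 3231, 2003 and 3975 CPM in DMSO replicates 1 to 3. Its log2 fold change was -0.28 ± 0.37 (edgeR, unadjusted p = 0.465), and it moved to -0.081 without TSA replicate 1 and to -0.59 without TSA replicate 3. *Tmsb10* (chr6:72957347-72958748, minus strand) had 2.19, 1.92 and 6.56 CPM in TSA replicates 1 to 3, against 3.51, 9.23 and 2.69 CPM in DMSO replicates 1 to 3, which rests on 25 to 73 counts in TSA libraries and 30 to 97 in DMSO libraries. The log2 fold change of -0.53 ± 1.22 was smaller than its standard error. The value was -0.27 without TSA replicate 1, -1.39 without TSA replicate 3 and 0.16 without DMSO replicate 2.

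The genes that cut filaments were *Cfl1* and *Gsn*. *Cfl1* (chr19:5490455-5495201, plus strand) had 64.0, 55.0 and 19.2 CPM in TSA replicates 1 to 3, against 27.4, 35.3 and 42.3 CPM in DMSO replicates 1 to 3. As for *Actb*, TSA replicates 1 and 2 were above and TSA replicate 3 was below all DMSO libraries. Its log2 fold change was 0.40 ± 1.20 (edgeR, unadjusted p = 0.750), with 0.17 without TSA replicate 1 and 0.73 without TSA replicate 3. The overlapping gene *Snx32*, a sorting nexin, had 1097, 1355 and 1 counts in TSA libraries and 0, 2079 and 1 counts in DMSO libraries. The part of reads from *Snx32* in the *Cfl1* counts was not tested. *Gsn* (chr2:35256380-35307892, plus strand) had 2, 2 and 0 counts in TSA libraries and 3, 1 and 0 in DMSO libraries. All 6 values are at or under the floor of 3 counts, so gelsolin mRNA was not measurable at this depth in either group and no fold is given.

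*Arpc2* (chr1:74236084-74268209, plus strand) had 83.2, 42.5 and 45.5 CPM in TSA replicates 1 to 3, against 92.0, 51.5 and 0 CPM in DMSO replicates 1 to 3. The 0 in DMSO replicate 3 stood in a library of 12276489 counts, while the other 5 libraries held 506 to 1179 counts of the gene. Values of 0 were common among genes at this mean level. Genes with counts like those of *Arpc2* in the other 5 libraries were not looked at apart. Of the 5826 genes with a mean of 10 to 100 CPM, 46.4% had 0 counts in at least 1 library, against 6.09% of the 1511 genes at 100 to 1000 CPM. The log2 fold change of *Arpc2* was 0.26 ± 1.96 (edgeR, unadjusted p = 0.900), the widest error of the 9 genes, and it was -0.43 ± 1.09 without DMSO replicate 3 and -0.064 without TSA replicate 1. It also moved with the tool, to 3.43 with limma-voom and 2.55 with limma-trend, neither of which passed the unadjusted threshold.

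*Capza2* (chr6:17636234-17666972, plus strand) had 441, 504 and 133 CPM in TSA replicates 1 to 3, against 341, 294 and 346 CPM in DMSO replicates 1 to 3. The DMSO libraries were close together, with a coefficient of variation of 8.74%, whereas TSA replicates 1 and 2 lay above and TSA replicate 3 below them (55.3%). Its log2 fold change was 0.13 ± 0.60 (edgeR, unadjusted p = 0.828), with 0.054 without TSA replicate 1, -0.11 without TSA replicate 2 and 0.49 without TSA replicate 3.

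*Actb*, *Cfl1* and *Capza2* thus shared 1 order of libraries, in that TSA replicate 3 was the lowest of all 6 and TSA replicates 1 and 2 were the highest. When TSA replicate 3 was left out, the TSA libraries lay above all DMSO libraries for 5 of the 9 genes and below them for 2, *Tmsb10* and, narrowly and under the scaling of the remaining libraries, *Tmsb4x*. In that fit 16.5% of all genes tested were apart upward and 9.58% downward. In *Pfn1*, *Tmsb4x* and *Tmsb10*, TSA replicate 3 was instead the highest TSA library.

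**Figure D3:**
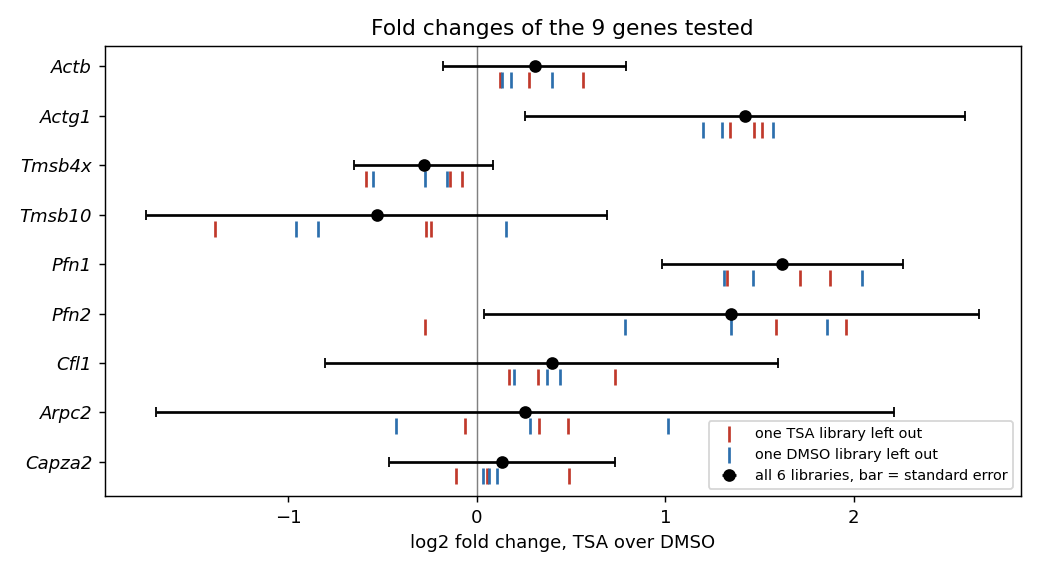
Log2 fold change, TSA over DMSO, of the 9 genes tested. Black points are the estimates from all 6 libraries with bars of 1 standard error, and ticks below them are the estimates with 1 TSA library (red) or 1 DMSO library (blue) left out. *Pfn1* and *Actg1* stay above 1 at every tick, whereas the ticks of *Pfn2*, *Arpc2*, *Capza2* and *Tmsb10* fall on both sides of 0.

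The spread between libraries was wide. In the edgeR fit the biological coefficient of variation over all genes was 147%. Of the 5826 genes at 10 to 100 CPM, the median coefficient of variation was 90.5% in TSA libraries and 116% in DMSO libraries. *Actg1* and *Cfl1*, with coefficients of 18.8% and 51.4% in TSA cones and 23.4% and 21.2% in DMSO cones, varied less than these medians. *Actb* (41.2% in TSA cones and 14.3% in DMSO cones) and *Pfn1* (34.0% in TSA cones and 54.2% in DMSO cones) were below the medians of 43.7% for TSA libraries and 55.0% for DMSO libraries at 100 to 1000 CPM. *Capza2*, in the same range, was above this median in TSA cones (55.3%) and below it in DMSO cones (8.74%). *Pfn2*, at 157 CPM on average in TSA cones, was far above the same TSA median.

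**Figure D4:**
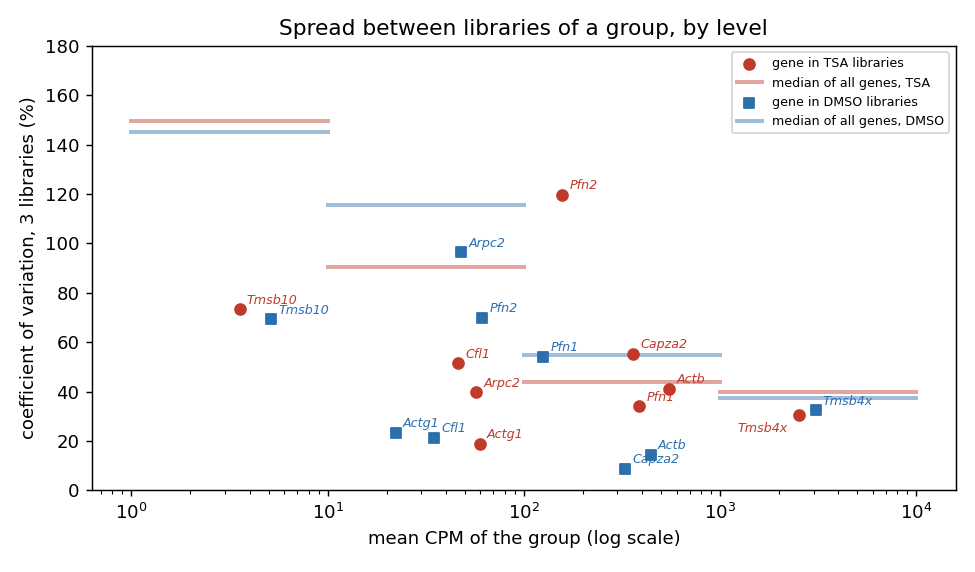
Coefficient of variation over 3 libraries (%) against the mean CPM of the group (log scale) for the 9 genes tested, in TSA (red circles) and DMSO libraries (blue squares), with bars at the median of all genes of each level range. *Pfn2* in TSA libraries is at 120%, far above the TSA median of 43.7% at its level.

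Other genes of the actin cytoskeleton were taken from lists by role. Of 197 genes listed, 190 were in the table and 97 were tested. An unadjusted p of 0.05 was reached upward in TSA cones by 5 of the 97 (5.15%) and downward by 2 (2.06%), and 0 passed the adjustment in edgeR, while DESeq2 called 6. The median log2 fold change of the 97 was -0.19, against 0.31 for the 9 genes above. The groups lay apart for 7 genes (7.22%) in the direction of TSA and for 4 (4.12%) in the direction of DMSO. These shares can be read beside the 8.02, 2.3, 6.37 and 3.71% of all genes. Of the 97, 62 passed the filter through both groups, 27 through TSA cones alone and 8 through DMSO cones alone. None of the 7 genes past the threshold was among the 62. They passed the filter only through the group where they were high, so their difference is in part set by the filter. With at least 10 counts in 3 libraries required, *Coro2b* and *Git1* remained past the threshold. Both met that stricter filter again only through the group where they were high, so remaining past the threshold gives no further support.

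In the list of cofilin regulation, 4 of 9 genes tested reached the unadjusted threshold upward, where 8.02% of all genes did. All 4 passed the filter through TSA cones alone, so nothing about the list is read from this count. *Coro2b*, a coronin, had 340, 123 and 80 counts in TSA libraries and 0, 3 and 0 in DMSO libraries, a pooled ratio of 153 (95% counting interval 52.2 to 746). *Coro1c*, another coronin, had 384, 0 and 67 counts in TSA libraries and 2, 0 and 2 in DMSO libraries. *Gmfg*, a glia maturation factor that in mammals is mostly found in blood cells and acts on Arp2/3 branches, had 104, 222 and 1 counts in TSA libraries and 2, 1 and 0 in DMSO libraries. *Tesk2*, a kinase that phosphorylates cofilin, had 52, 70 and 0 counts in TSA libraries and 1, 0 and 0 in DMSO libraries. Of these 4, *Coro2b* was the one at over 10 counts in all 3 TSA libraries, and the others were at 0 or 1 counts in 1 of them. Without TSA replicate 1, *Coro1c*, *Gmfg* and *Tesk2* did not pass the filter, and *Coro2b* kept an unadjusted p = 0.011 in edgeR. The most abundant genes of the list were not past the threshold, as *Coro1b* (62.7 ± 41.0 CPM in TSA cones and 38.4 ± 23.6 CPM in DMSO cones) and *Gmfb* (63.5 ± 47.8 CPM in TSA cones and 82.1 ± 97.0 CPM in DMSO cones) overlapped between the groups.

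The plastins, which bundle filaments, gave 1 gene in each direction. *Pls3* had 7, 503 and 496 counts in TSA libraries and 1, 0 and 0 in DMSO libraries, and *Pls1* had 1, 5 and 0 counts in TSA libraries and 135, 983 and 1 in DMSO libraries. Without TSA replicate 1 the call of *Pls1* was lost (edgeR, unadjusted p = 0.097). *Git1*, a scaffold protein of focal adhesions, had 1, 2 and 0 counts in TSA libraries and 127, 109 and 43 in DMSO libraries, and was the gene of the wider lists with the smallest unadjusted p (0.005 in edgeR). All 7 genes had at most 5 counts in every library of 1 group, unlike *Pfn1* and *Actg1*, whose lowest libraries held 774 and 185 counts.

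**Figure D5:**
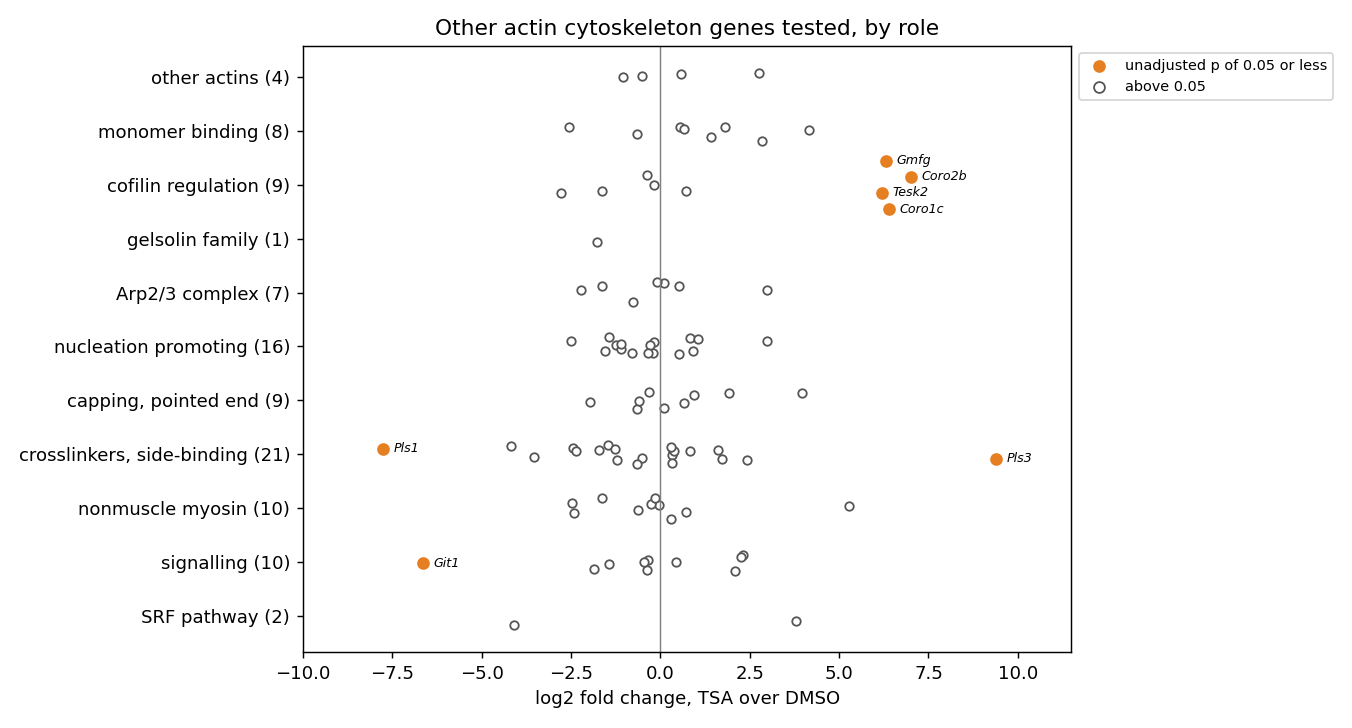
Log2 fold change, TSA over DMSO, of the 97 other actin cytoskeleton genes tested, 1 row per role with the number tested in brackets. Filled points are genes that reached an unadjusted p of 0.05. There are 5 of them at the right, all of which passed the filter through TSA cones alone, and 2 at the left, which passed it through DMSO cones alone.

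In the other roles, edgeR put 0 genes past the unadjusted threshold. Among the monomer-binding proteins, *Dstn* (destrin, a relative of cofilin) had 234 ± 88.4 CPM in TSA cones and 88.3 ± 80.9 CPM in DMSO cones, with 22 to 1759 counts in DMSO libraries. *Cfl2*, the muscle form of cofilin, had 152 ± 76.5 CPM in TSA cones and 103 ± 166 CPM in DMSO cones. In the Arp2/3 complex, the partners of *Arpc2* gave 159 ± 91.2 CPM in TSA cones and 168 ± 86.3 CPM in DMSO cones for *Arpc5l*, and 142 ± 111 CPM in TSA cones and 98.5 ± 31.1 CPM in DMSO cones for *Arpc1a*. *Capzb*, the β subunit that pairs with the product of *Capza2*, had 220 ± 90.8 CPM in TSA cones and 275 ± 226 CPM in DMSO cones. Among genes that start or lengthen filaments, the formin *Fmn1* had 57.0 ± 13.3 CPM in TSA cones and 154 ± 58.2 CPM in DMSO cones (edgeR, unadjusted p = 0.118), and *Brk1*, a WAVE complex subunit, had 400 ± 198 CPM in TSA cones and 459 ± 378 CPM in DMSO cones.

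*Myl6*, a nonmuscle myosin light chain, had 712 ± 223 CPM in TSA cones and 791 ± 360 CPM in DMSO cones. *Acta1*, the skeletal muscle actin, which shares 3 windows of 75 bases with *Actb*, had 569, 957 and 598 counts in TSA libraries and 3, 300 and 2352 counts in DMSO libraries. Of the gelsolin family other than *Gsn*, 1 of 7 listed genes was tested. This was *Svil* (supervillin), with 0, 141 and 52 counts in TSA libraries and 565, 1 and 3 counts in DMSO libraries. Of the SRF targets and cofactors, 2 of 11 were tested, and *Cyr61*, the more abundant, had 1873, 0 and 170 counts in TSA libraries and 0, 111 and 0 counts in DMSO libraries.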

How the data were processed

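Purified cones of 3 TSA-treated and 3 DMSO-treated sets of explants were sequenced. The authors trimmed single 75-base reads, used STAR 2.5.4a for alignment to GRCm38 and Subread 1.6.0 for counting, and deposited raw counts. Their notes also name edgeR 3.22.3. A second deposited table, of the authors' own comparison, was not used. Every column belonged to 1 sample, and every row named a gene.

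From the counts, TMM scaling and the quasi-likelihood test of edgeR 4.0.16 in R 4.3.3 were applied to the 9621 genes left by the filter, by treatment. The standard error is the size of the log2 fold change over the root of the F statistic. Intervals are 95% and cover counting error only, since PCR copies are not told apart. Counts were also simulated with the same spread for every gene and the same size of change for every changed gene. On these, edgeR found the changed genes at a low spread and missed them at a spread near the fitted one. Spreads that differ from gene to gene, as in these data, were not simulated. The members, role lists and markers were chosen with earlier results of these data known. Named are all members, every gene of the role lists that reached an unadjusted p of 0.05, up to 2 of highest mean CPM per role, and the 2 leading markers of a list. *Snx32* was added for its overlap. Some results of 1 role list are not reported here.

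Shared windows were exact matches of 75 bases on either strand in GENCODE transcripts of GRCm38. Alternatives were RLE, upper-quartile and total scaling, DESeq2 1.42.0, limma 3.58.1 as voom with sample weights or as limma-trend (prior count 2), no filter, 10 counts in 3 libraries, the replicate number as a block and each library left out.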

Additional observations from a re-analysis of the deposited data

How the results depend on the processing

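Of the fold changes of the 9 genes, *Capza2* turned to -0.078 with limma-trend and -0.058 with the replicate block. Over the fits that left out 1 library, *Pfn2* ranged from -0.28 (without TSA replicate 1) to 1.96, *Arpc2* from -0.43 (without DMSO replicate 3; -0.064 without TSA replicate 1) to 1.02 (3.43 with limma-voom, 2.55 with limma-trend and 1.36 with the replicate block), *Capza2* from -0.11 (without TSA replicate 2) to 0.49 and *Tmsb10* from -1.39 to 0.16 (without DMSO replicate 2). *Pfn1* kept 1.31 to 2.04. Its call was lost with DESeq2 (unadjusted p = 0.064), with no filter (unadjusted p = 0.089) and with the replicate block (unadjusted p = 0.052), so that 0 of the 9 genes were then higher. Leaving out 1 library gave 0 or 1 genes higher, where 3.91 to 8.38% of all genes were, and 2 to 5 genes apart upward and 0 to 2 downward, where 10.9 to 16.5% and 7.21 to 10.9% of all genes were. All genes called at an adjusted p under 0.05 were 856 with DESeq2, 37 with limma-voom and 11 with no filter. In the wider lists, the number higher (5) was 8 with DESeq2, 8 with limma-voom, 3 with limma-trend, 1 with 10 counts in 3 libraries, 3 with the replicate block and 2 to 10 with 1 library left out. The number lower (2) was 5 with DESeq2, 1 with limma-voom, 1 with limma-trend, 5 with no filter, 1 with 10 counts in 3 libraries and 1 to 2 with 1 library left out, and DESeq2 called 6 at an adjusted p under 0.05. The causes were not tested. Deviations of same-numbered libraries from their group means correlated at -0.015, 0.063 and 0.040, and those of differently numbered ones at -0.091 to 0.050. At this spread between libraries, such values do not settle whether the samples were paired. Median fold changes over all genes were 0.025 with TMM, -0.048 with RLE, 0.13 with upper quartile, 0.15 with total scaling, 0.58 with limma-voom, 0.36 with limma-trend and 0.32 with the replicate block. The medians of the 9 genes were 0.31, 0.23, 0.40, 0.44, 0.64, 0.24 and 0.26 in the same order, and 0.054 to 0.56 with 1 library left out. *Gsn* had 0 to 3 counts per library.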
